A study of Homo sapiens with 8 samples.

Results

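The genes described here are the WNT ligands, their receptors and the regulators of the pathway: WNT, frizzled (FZD), Dickkopf (DKK), secreted frizzled-related (SFRP), LRP5, LRP6, axin, APC, beta-catenin (CTNNB1) and TCF/LEF genes. They were chosen by name from the gene column of the arrays, which gave 48 genes with 62 probes among 36337 gene names and 50599 probes that are not controls. The rule uses no measured value. Of the 48 genes, 36 were tested in at least 1 comparison between lines and 12 in none. The 12 are DKK4, FZD10, SFRP2, SFRP4, WNT1, WNT2, WNT7A, WNT7B, WNT8A, WNT9A, WNT9B and WNT10A, for which no line had a probe well above background on its 2 arrays. SFRP3, which the array lists as FRZB, carries another name and is given with the other pathway genes.

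WNT proteins are secreted lipid-modified ligands that bind frizzled receptors together with LRP5 or LRP6. Without a ligand, a cytoplasmic destruction complex built on axin and APC marks beta-catenin for breakdown, and with a ligand that complex is held at the receptor and beta-catenin enters the nucleus, where it works with TCF/LEF factors on DNA. SFRP proteins bind the ligands outside the cell, DKK1 and DKK2 bind LRP5 and LRP6, and several WNT proteins, among them WNT5A, also act through routes that do not need beta-catenin. HEK293 cells, a human embryonic kidney line, respond to WNT ligands and are a usual host for reporter assays of this pathway.

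RNA came from 4 FT293 lines, which are HEK293 cells carrying the Flp-In T-REx system, with 2 arrays per line. Each line holds a single transgene under a tetracycline-inducible promoter at the same integration site. The GFP line, the control, expresses GFP alone, and the HuR, TIA1 and TIAR lines express GFP-HuR, GFP-TIA1 and GFP-TIAR. Tetracycline was given to all lines, the control included, and RNA was taken on day 3. HuR, TIA1 and TIAR are RNA-binding proteins, and the endogenous copies of their genes remain in all 4 lines. The design text calls the 2 arrays of a line independent biological replicates. Each construct is represented by 1 line, so the protein and the line that carries it cannot be told apart. All 8 arrays were on 1 slide.

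The sequences below belong to the members that the results turn on. The first set gives the first 30 bases of the array probe, 5′ to 3′, for APC2, WNT6, WNT16 and WNT5A, and for both WNT4 probes, which gave different results. Probe positions on GRCh37, from the array design, were chr19:1473181-1473240 for APC2, chr2:219738852-219738911 for WNT6, chr7:120980617-120980676 for WNT16 and chr3:55499800-55499859 for WNT5A. The WNT4 probe that was tested lies at chr1:22453813-22453872 and the other at chr1:22443798-22443857. Exons and introns at these positions were not looked up, since no annotation of that build was used here.
APC2: taaggacgacaccgtcagctgtccgactcg
WNT6: tggaaaaaagccagtctaaaggcctctgga
WNT16: aattgaattctcttttcacattagttatgc
WNT5A: gcatcttagaccatttttatatgcagtgta
WNT4, tested probe: aatgctggcctgaagccatcgtgggtactc
WNT4, other probe: ttgtgacgtcccatgacatagtctgatgca

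The second set is the 250 bases before the RefSeq start (GRCh38.p14) of WNT6 and WNT16, the ligands with the largest called differences among the HuR, TIA1 and TIAR lines, and of DKK1, an inhibitor that is itself a known target of beta-catenin. TCF/LEF factors bind a short core, searched here as CTTTGA and CTTTGT on both strands, and capitals mark its matches. The promoters lie at chr2:218859555-218859804 for WNT6, chr7:121328750-121328999 for WNT16 and chr10:52314031-52314280 for DKK1, each on the + strand.
WNT6 promoter: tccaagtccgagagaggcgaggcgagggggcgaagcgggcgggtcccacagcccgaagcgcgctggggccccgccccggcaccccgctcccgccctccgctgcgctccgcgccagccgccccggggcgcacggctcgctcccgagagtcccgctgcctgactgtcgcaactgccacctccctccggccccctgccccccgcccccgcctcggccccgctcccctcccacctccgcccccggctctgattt
WNT16 promoter: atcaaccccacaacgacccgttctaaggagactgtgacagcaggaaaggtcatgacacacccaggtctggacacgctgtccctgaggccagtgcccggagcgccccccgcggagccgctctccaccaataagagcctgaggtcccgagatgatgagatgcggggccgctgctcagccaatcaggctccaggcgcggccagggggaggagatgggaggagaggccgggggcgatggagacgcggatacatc
DKK1 promoter: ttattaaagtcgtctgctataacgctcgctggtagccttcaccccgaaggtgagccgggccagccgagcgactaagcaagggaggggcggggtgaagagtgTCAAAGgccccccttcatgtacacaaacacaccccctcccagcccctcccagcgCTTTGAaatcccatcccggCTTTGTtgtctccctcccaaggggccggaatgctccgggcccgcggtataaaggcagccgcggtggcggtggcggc
The DKK1 promoter held 3 matches, and those of WNT6 and WNT16 held 0. G and C made up 79.2% of the WNT6 bases, 64.8% of the WNT16 bases and 62.8% of the DKK1 bases. Of the 34 members with a promoter in the table, 5 held a match (14.7%), namely DKK1, FZD1, TCF7, TCF7L2 and WNT8B. Among all 27305 promoters of that length, 7261 held a match (26.6%). The absence of these letters from a window says nothing about the factor.

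Levels are given as log2 of the processed signal relative to the array's 75th percentile, so that 0 is the signal of that percentile and each unit is a doubling. Levels of different probes cannot be set against each other. A probe was called where the fold change was at least 2 and the adjusted p (limma, Benjamini-Hochberg, over all tested probes) was under 0.05, and a gene was called where at least 1 of its probes was. On 7 arrays 26931 to 29605 probes passed Agilent's mark for well above background, against 43530 (86.1%) on GFP 1, whose local background was 83.2 against 35.7 to 41.5. The replicate arrays correlated at r = 0.954 in the GFP line and between r = 0.993 and r = 0.997 in the others, over 24959 probes. Of 10 genes listed as markers of HEK293 cells, 9 were well above background on all 8 arrays, and NEFM was not on GFP 2. A TIAL1 (TIAR) probe read 4.87 and 4.98 on the TIAR arrays and 1.63 to 2.52 on the others. The probes of TIA1 and ELAVL1 (HuR) were not highest in the lines named for them, and whether they lie in the part that the transgenes carry was not looked up, so they give no check of those labels. Fewer cells of a kind and less RNA per cell cannot be told apart in bulk RNA.

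GFP 1 stood apart among the members as well. Of the 62 member probes, 24 differed by at least 2-fold between GFP 1 and GFP 2, and all 24 were brighter on GFP 1. On 22 probes GFP 1 was at least 2-fold above every other array. For WNT2B, a ligand of the beta-catenin route, the level was 1.41 on GFP 1, −5.11 on GFP 2 and between −5.23 and −4.24 on the other 6 arrays. DKK4 read −0.18 on GFP 1, −6.86 on GFP 2 and at most −7.30 elsewhere. In the HuR line 1 of 42 probes well above background on both arrays differed by 2-fold (a TCF7L2 probe), in the TIA1 line 0 of 41, and in the TIAR line 1 of 42 (WNT4). Under that limit, a probe each of WNT2B, WNT8B, TCF7, TCF7L2, AXIN2, DKK3 and SFRP5 differed by 2-fold in the GFP line. Dim probes of the other lines could differ too, as WNT7A did in the TIA1 line (−7.76 and −5.34). Comparisons with the GFP line are therefore given with both arrays and with GFP 2 alone.

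**Figure D1:**
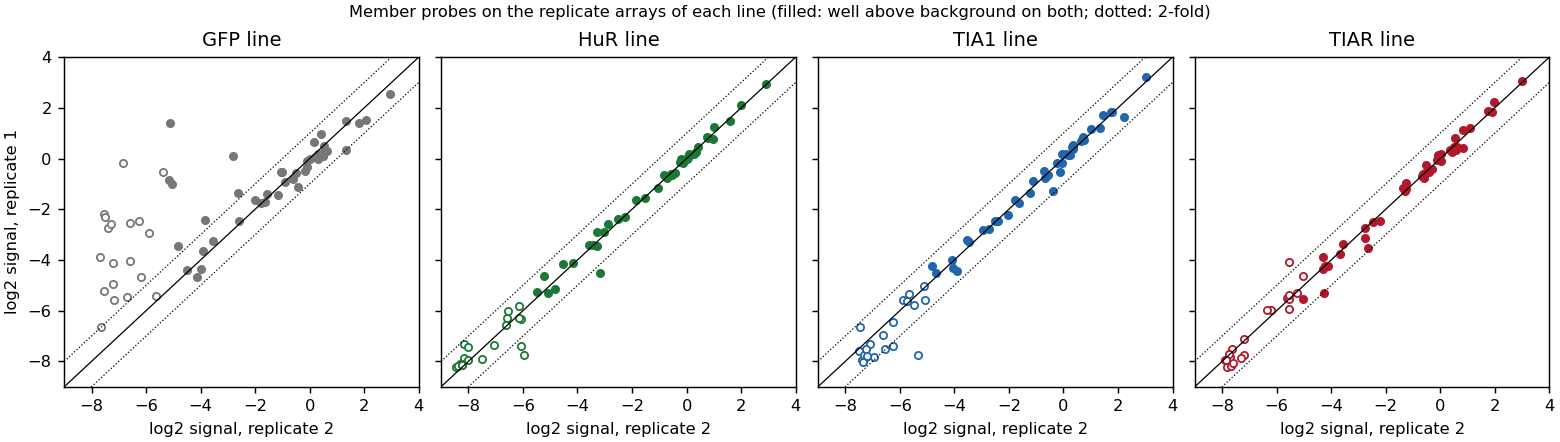
Level of each of the 62 member probes (log2 signal relative to the array's 75th percentile) on replicate 1 against replicate 2, by line; filled points were well above background on both arrays and dotted lines mark 2-fold. In the GFP line 24 probes, filled and open, lie beyond 2-fold, all of them above the diagonal (brighter on GFP 1). Filled points of the other lines lie close to the diagonal, with 1 exception each in the HuR and TIAR lines, while some of their open points lie beyond 2-fold.

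Against the HuR line, more members were called higher than lower in the TIA1 and the TIAR line. In TIA1 against HuR, 4 of 34 tested genes were called (11.8%), against 15.9% of all genes. WNT6, WNT16 and APC2 rose, against 10.2% of all genes called higher, and WNT4 fell, against 5.79% called lower. In TIAR against HuR, 6 of 35 tested genes were called (17.1%), against 12.2% of all genes. These were WNT6, WNT3A, SFRP1, SFRP5, DKK3 and APC2, and all 6 rose, against 8.62% of all genes called higher and 3.66% called lower. SFRP5 passed the filter through the TIAR arrays alone, and WNT4, in TIA1 against HuR, through the HuR arrays alone. The filter thus fixed their directions in advance. With the dimmer line at its background limit, the differences were at least 1.65-fold for SFRP5 and 1.08-fold for WNT4. The shares of members called lay near those of all genes. The split of all probes between higher and lower moved with the scaling, from 2444 and 1408 to 1749 and 1660 in TIA1 against HuR, and from 2055 and 875 to 1442 and 1078 in TIAR against HuR, with quantile normalization. Under that scaling WNT6, WNT16, APC2 and WNT4 were called as before in TIA1 against HuR, and WNT6, APC2 and SFRP5 in TIAR against HuR. The HuR arrays are shared by both comparisons, which are therefore not independent.

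The median difference of the member probes was 0.31 in TIA1 against HuR and 0.26 in TIAR against HuR, beside 0.08 and 0.05 over all tested probes. Without regard to sign, the medians were 0.41 and 0.41 for the members and 0.39 and 0.34 for all probes. An adjusted p under 0.05 at any fold was reached by 17 of 34 members in TIA1 against HuR, where 46.7% of all genes reached it. In TIAR against HuR it was reached by 16 of 35 members (45.7%) against 35.3% of all genes. Members that passed this threshold under 2-fold numbered 13 and 10, of which 10 and 7 were higher than in the HuR line.

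**Figure D2:**
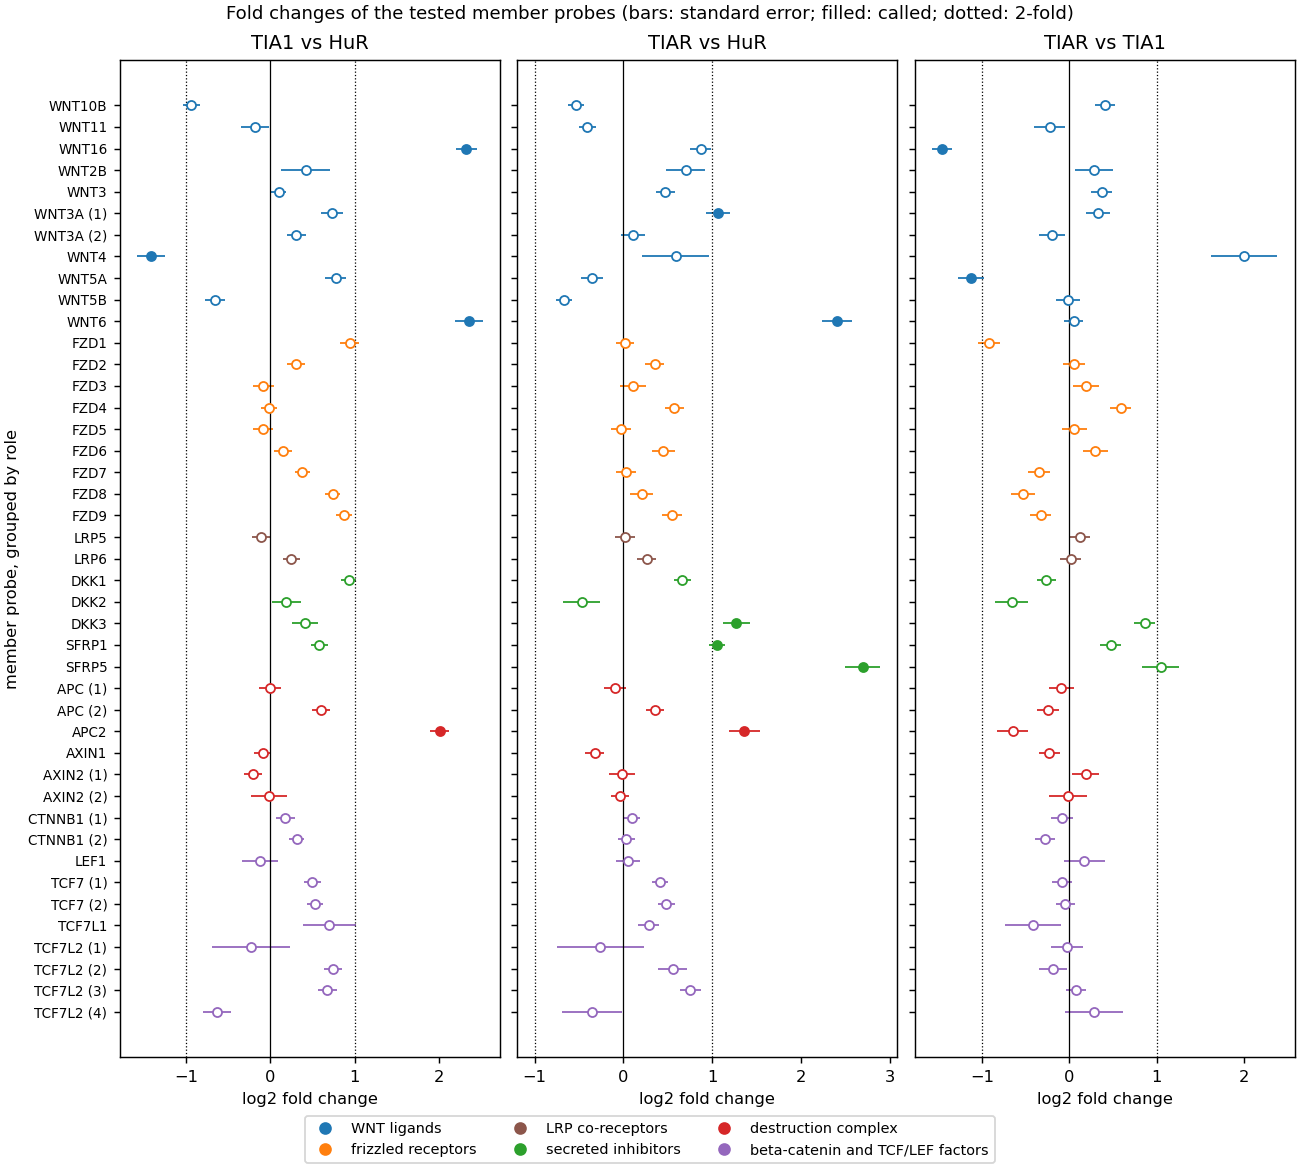
Log2 fold change of every tested member probe, grouped by role, in TIA1 against HuR, TIAR against HuR and TIAR against TIA1; bars are standard errors, filled points were called, dotted lines mark 2-fold, and numbers in brackets tell probes of 1 gene apart. WNT6 and APC2 are filled and right of 2-fold in both comparisons with HuR, WNT16 only in TIA1 against HuR, and the receptors lie within 2-fold in all panels.

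Among the ligands, 11 of 19 were tested in some comparison, and WNT6 gave the largest called difference among the HuR, TIA1 and TIAR lines. WNT6, a ligand known from kidney and skin development, read −2.88 and −3.29 on the HuR arrays, −1.74 and −1.80 on the GFP arrays, −0.77 and −0.68 on the TIA1 arrays and −0.70 and −0.66 on the TIAR arrays. The HuR arrays were lowest, the GFP arrays came next and the TIA1 and TIAR arrays were highest, with no overlap between these sets. WNT6 rose by 2.36 ± 0.17 (log2, SE) in TIA1 against HuR (limma, adjusted p = 0.00294) and by 2.40 ± 0.17 in TIAR against HuR (adjusted p = 0.00507). TIAR against TIA1 gave 0.05 ± 0.11 (adjusted p = 0.821).

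WNT16, a ligand studied in bone and in blood stem cell formation, was highest in the TIA1 line. Its level was −2.81 and −2.95 there, −4.36 and −4.32 in the TIAR line, −4.36 and −3.98 in the GFP line and −5.31 and −5.10 in the HuR line. The TIA1 arrays stood above all others and the HuR arrays below all others, while the TIAR values lay at the lower GFP value or just above it. WNT16 rose by 2.33 ± 0.12 in TIA1 against HuR (limma, adjusted p = 0.00225). The call was kept with other scalings but the size was not: the difference was 1.42 with normexp background correction, 1.06 with normexp and quantile normalization and 1.06 in the authors' values. In TIAR against HuR the difference was 0.87 ± 0.12 (adjusted p = 0.0134), under 2-fold, and TIAR was lower than TIA1 by a log2 difference of −1.46 ± 0.12 (adjusted p = 0.0234).

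WNT5A, the best known ligand of routes without beta-catenin, read 1.70 and 1.46 in the TIA1 line, 0.34 and 0.57 in the TIAR line and 0.81 and 0.80 in the HuR line. The 2 GFP arrays, at 0.35 and 1.32, spanned the HuR values and overlapped the TIAR values. WNT5A was called in TIAR against TIA1 only, at −1.13 ± 0.15 (limma, adjusted p = 0.0440), and gave 0.78 ± 0.12 in TIA1 against HuR (adjusted p = 0.0123) and −0.35 ± 0.12 in TIAR against HuR (adjusted p = 0.0930). WNT16 and WNT5A were the 2 members called in TIAR against TIA1, of 35 tested (5.71%), against 2.93% of all genes. At any fold, 4 members had an adjusted p under 0.05 there (11.4%), against 4.34% of all genes, and the others were DKK3 (0.86) and FZD1 (−0.92). Neither call in TIAR against TIA1 was kept when any 1 of the 4 arrays was left out, with differences of −1.53 to −1.39 for WNT16 and −1.25 to −1.01 for WNT5A, and calls over all probes fell from 659 to between 0 and 34. With normexp WNT16 gave −0.90, uncalled.

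WNT3A, the ligand most used to activate the beta-catenin route in culture, rose in TIAR against HuR by 1.06 ± 0.13 (limma, adjusted p = 0.0112). Its probe read −0.77 and −0.58 in the TIAR line, −0.91 and −1.10 in the TIA1 line, −1.43 and −1.17 in the GFP line and −1.63 and −1.84 in the HuR line. The 4 lines did not overlap, in the order TIAR, TIA1, GFP, HuR. A further WNT3A probe gave 0.11 ± 0.13 in the same comparison (adjusted p = 0.580), and its values ranged from −2.50 to −1.64 over all arrays, so the call rests on 1 of 2 probes. That call was lost when HuR 1, HuR 2 or TIAR 2 was left out.

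WNT4, a ligand of kidney tubule formation, was low on all arrays. The tested probe read −5.26 and −5.49 in the HuR line, −6.96 and −6.63 in the TIA1 line, −5.31 and −4.27 in the TIAR line and −4.06 and −6.59 in the GFP line. On the TIA1 arrays and on GFP 2 it did not stand well above background. The fitted difference in TIA1 against HuR was −1.42 (limma, adjusted p = 0.00641) and −0.04 with normexp, uncalled, and with the TIA1 signal at the background limit of its arrays the HuR level was at least 1.08-fold higher. TIAR was at least 1.63-fold above TIA1 on the tested probe, which was not called (adjusted p = 0.0675). The other WNT4 probe was not tested in that comparison and lay the other way, at −5.99 and −6.55 in the HuR line and −5.02 and −5.10 in the TIA1 line.

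The other tested ligands stayed within 2-fold in the comparisons among the HuR, TIA1 and TIAR lines. WNT10B was lower in both comparisons with HuR, at −0.94 ± 0.10 in the TIA1 line (limma, adjusted p = 0.00569) and −0.53 ± 0.09 in the TIAR line (adjusted p = 0.0217). WNT5B gave −0.65 (adjusted p = 0.0183) and −0.67 (adjusted p = 0.0134). WNT11 gave −0.41 in TIAR against HuR (adjusted p = 0.0400) and WNT3 gave 0.47 (adjusted p = 0.0378), while neither reached an adjusted p of 0.05 in TIA1 against HuR. WNT2B gave 0.42 and 0.70 and missed the threshold in both (adjusted p = 0.300 and 0.0793). Ligands that differed thus lay on both sides of the HuR line.

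**Figure D3:**
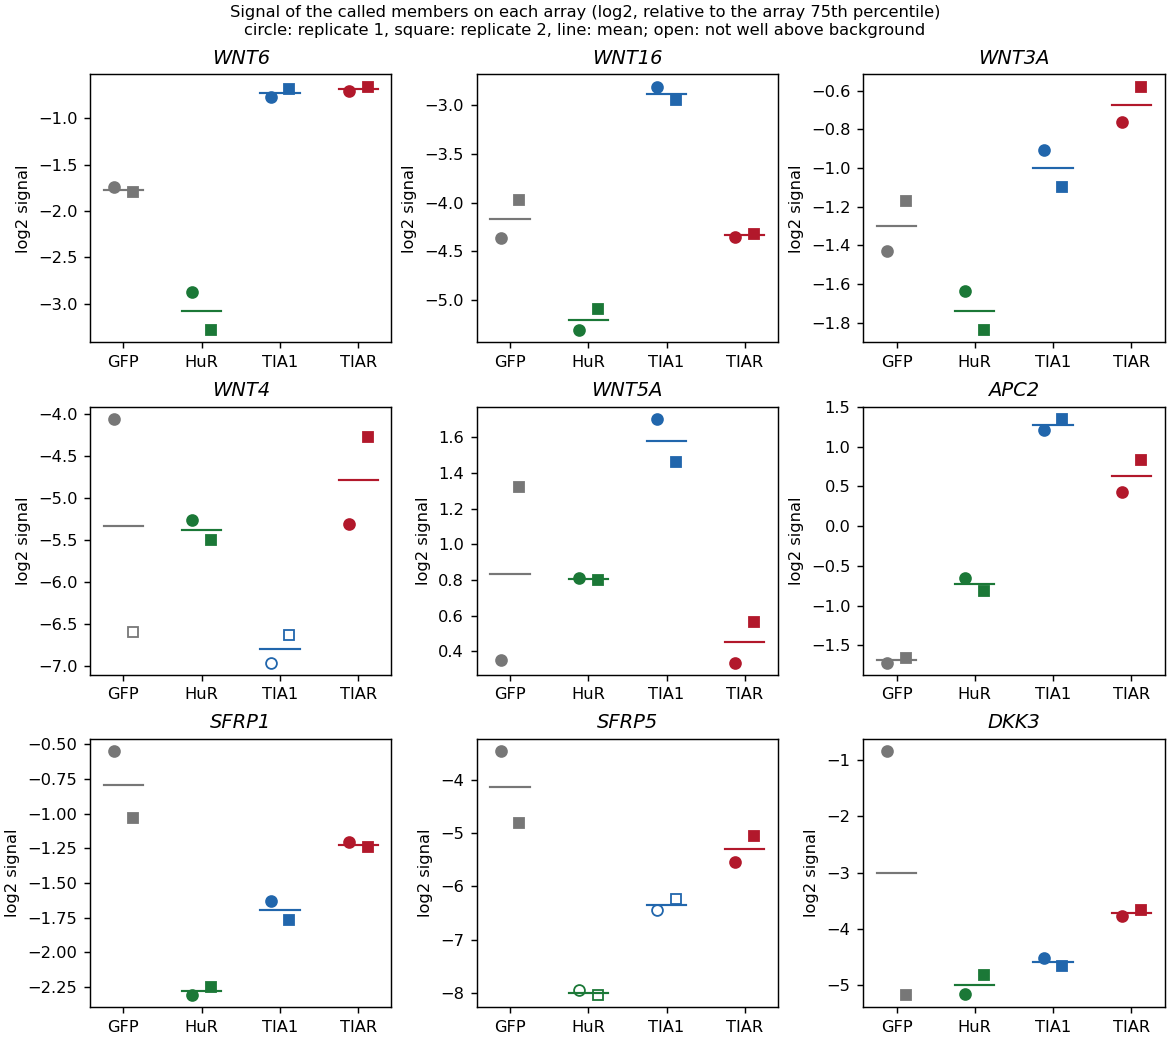
Level (log2 signal relative to the array's 75th percentile) of the 9 members called in a comparison among the HuR, TIA1 and TIAR lines, on each array of the 4 lines; the circle is replicate 1, the square replicate 2, the line their mean, and open symbols were not well above background. For APC2 and WNT6 the TIA1 and TIAR arrays stand above the HuR and GFP arrays, and for WNT4, SFRP5 and DKK3 the GFP arrays lie far apart.

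No frizzled receptor was called among the HuR, TIA1 and TIAR lines. Of the 10, 9 were tested, and limma called 0 in TIA1 against HuR and 0 in TIAR against HuR. Of these 9, 5 and 4 had an unadjusted p under 0.05, beside 57.7% and 50.9% of all genes. FZD1, a receptor for several ligands of the beta-catenin route, came nearest. It read 0.54 and 0.34 in the TIA1 line, −0.53 and −0.43 in the TIAR line, −0.55 and −0.44 in the HuR line and −0.52 and −1.07 in the GFP line. The TIA1 arrays lay above all others, with 0.94 ± 0.12 against HuR (adjusted p = 0.00772), and the TIAR line gave 0.02 ± 0.10 against HuR (adjusted p = 0.911).

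FZD8 and FZD9 also read higher in the TIA1 line than in the HuR line, by 0.74 ± 0.09 (limma, adjusted p = 0.00778) and 0.87 ± 0.10 (adjusted p = 0.00604). FZD9 gave 0.55 ± 0.11 (adjusted p = 0.0293) and FZD4 0.57 ± 0.11 (adjusted p = 0.0264) in TIAR against HuR. FZD3 and FZD5 differed by at most 0.11 in either comparison. The co-receptors LRP5 and LRP6 gave −0.11 ± 0.11 and 0.25 ± 0.10 in TIA1 against HuR and 0.01 ± 0.11 and 0.26 ± 0.11 in TIAR against HuR, and neither passed the adjusted threshold. LRP6 read between 1.38 and 1.87 on all 8 arrays.

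Of the 8 secreted inhibitors, 5 were tested in TIAR against HuR and 3 were called, all higher, where 8.62% of all genes were called higher. None of the 3 was called with normexp, with normexp and quantile normalization or in the authors' values. SFRP5 passed the filter through the TIAR arrays alone and was not tested in TIA1 against HuR, so the comparisons cover different genes. In TIA1 against HuR limma called 0 of 4, of which 2 had an unadjusted p under 0.05, beside 57.7% of all genes. SFRP1, which binds WNT ligands in the extracellular space, read −1.20 and −1.24 in the TIAR line, −1.63 and −1.77 in the TIA1 line, −2.30 and −2.25 in the HuR line and −0.55 and −1.03 in the GFP line. The HuR arrays were lowest and the GFP arrays highest, without overlap between any lines. SFRP1 rose by 1.05 ± 0.09 in TIAR against HuR (limma, adjusted p = 0.00667) and gave 0.58 ± 0.10 in TIA1 against HuR (adjusted p = 0.0162). In TIAR against HuR its difference was 0.94 with normexp, 0.90 with quantile normalization and 0.73 in the authors' values, uncalled in each.

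SFRP5, a further inhibitor of that family, read −5.55 and −5.05 in the TIAR line, −6.45 and −6.25 in the TIA1 line, −7.95 and −8.03 in the HuR line and −3.47 and −4.82 in the GFP line. It was not well above background on the HuR or the TIA1 arrays. The fitted rise in TIAR against HuR was 2.69 (limma, adjusted p = 0.00528), and against the background limit of the HuR arrays the TIAR level was at least 1.65-fold higher. The fitted value was 0.72 with normexp and 0.31 in the authors' values, uncalled in both, and the call was also lost without HuR 2. SFRP5 was not tested in TIA1 against HuR.

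DKK3, a Dickkopf family member that differs from the others in not being a clear inhibitor of LRP6, read −3.78 and −3.67 in the TIAR line, −4.52 and −4.66 in the TIA1 line, −5.17 and −4.82 in the HuR line, −0.85 on GFP 1 and −5.17 on GFP 2. On this probe the TIAR arrays stood above the TIA1 and HuR arrays. The other DKK3 probe was not well above background in these 3 lines and was not tested. It read −5.97 and −6.37 in the TIAR line, −5.79 and −5.47 in the TIA1 line and −7.39 and −6.07 in the HuR line. DKK3 rose by 1.27 ± 0.15 in TIAR against HuR (limma, adjusted p = 0.0109) and gave 0.41 ± 0.15 in TIA1 against HuR (adjusted p = 0.101). With normexp the DKK3 difference was 0.75, with normexp and quantile normalization 0.43 and in the authors' values 0.25, none of them called. The SFRP1 and DKK3 calls were lost when either of the HuR arrays was left out.

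DKK1, which blocks LRP5 and LRP6 and whose promoter is printed above, read −2.45 and −2.52 in the TIA1 line, −2.72 and −2.78 in the TIAR line, −3.39 and −3.44 in the HuR line and −3.65 and −3.90 in the GFP line. The 4 lines did not overlap, and the replicate arrays of a line lay close together. It gave 0.93 ± 0.09 in TIA1 against HuR (limma, adjusted p = 0.00491) and 0.66 ± 0.09 in TIAR against HuR (adjusted p = 0.0143), under 2-fold in both. DKK2 passed in neither (0.19 and −0.47, adjusted p = 0.427 and 0.155).

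In the destruction complex, APC2 was the gene called. APC2, a relative of the tumour suppressor APC that is best known from neurons, read 1.21 and 1.35 in the TIA1 line, 0.42 and 0.83 in the TIAR line, −0.65 and −0.81 in the HuR line and −1.72 and −1.66 in the GFP line. No lines overlapped, and the order was TIA1, TIAR, HuR, GFP. APC2 rose by 2.01 ± 0.12 in TIA1 against HuR (limma, adjusted p = 0.00243) and by 1.36 ± 0.18 in TIAR against HuR (adjusted p = 0.0123), and TIAR against TIA1 gave −0.65 ± 0.18 (adjusted p = 0.126). In TIAR against HuR the call was lost when either of the HuR arrays was left out.

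APC itself has 2 probes, which gave 0.60 ± 0.10 (limma, adjusted p = 0.0151) and 0.00 ± 0.13 (adjusted p = 0.979) in TIA1 against HuR. AXIN1, the scaffold of the complex, gave −0.09 ± 0.10 and −0.32 ± 0.11 against HuR in the TIA1 and the TIAR line (adjusted p = 0.504 and 0.0868). AXIN2, a general target of beta-catenin that feeds back on the pathway, gave −0.21 ± 0.11 and −0.02 ± 0.21 on its 2 probes in TIA1 against HuR, and −0.02 ± 0.15 and −0.04 ± 0.10 in TIAR against HuR. The AXIN2 probe with the higher signal read between −1.58 and −0.95 on all 8 arrays.

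Beta-catenin and the TCF/LEF factors stayed within 2-fold in all 3 comparisons among the HuR, TIA1 and TIAR lines. The brighter CTNNB1 probe read 3.20 and 3.01 in the TIA1 line, 3.06 and 2.98 in the TIAR line, 2.93 and 2.92 in the HuR line and 2.56 and 2.95 in the GFP line. It gave 0.18 ± 0.11 in TIA1 against HuR (limma, adjusted p = 0.250) and 0.10 ± 0.09 in TIAR against HuR (adjusted p = 0.478). LEF1 gave −0.12 ± 0.21 and 0.05 ± 0.14, with adjusted p = 0.678 and 0.792. TCF7 read higher on both of its probes, by 0.50 and 0.53 in TIA1 against HuR (adjusted p = 0.0236 and 0.0182) and by 0.41 and 0.48 in TIAR against HuR (adjusted p = 0.0376 and 0.0313).

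The 4 probes of TCF7L2 did not run together. In TIA1 against HuR they gave 0.68 ± 0.12, 0.74 ± 0.11, −0.63 ± 0.17 and −0.23 ± 0.46, and the first 3 of these had adjusted p = 0.0151, 0.0108 and 0.0448 in limma. Their positions on GRCh37 are chr10:114905803-114905862, chr10:114911485-114911544, chr10:114724321-114724380 and chr10:114925978-114926037. TCF7L2 is known for several splice forms, and which forms each probe detects was not looked up.

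Against the GFP line, limma called 0 members in each of the 3 comparisons, where 0% of all genes were called in TIA1 against GFP, 0% in TIAR against GFP and 0% in HuR against GFP. Genes with an unadjusted p under 0.05 numbered 12 of 35 members in TIA1 against GFP, 8 of 36 in TIAR against GFP and 8 of 36 in HuR against GFP, beside 25.9%, 20.0% and 21.1% of all genes. The smallest adjusted p of a member was that of APC2 in TIA1 against GFP, at 0.0954 with a difference of 2.97 ± 0.19, and the next comparison gave 2.32 ± 0.24 for APC2 in TIAR against GFP (adjusted p = 0.151). In these tests limma draws the variance of each probe toward that of all tested probes, which includes the wide spread between GFP 1 and GFP 2. For APC2 itself the GFP arrays lay close together, at −1.72 and −1.66.

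With GFP 1 left out and the other 7 arrays in a common limma fit, GFP 2 was the sole control and was taken to vary like the other lines. That fit was chosen after the data were seen. It called 8 members in TIA1 against GFP, 5 in TIAR against GFP and 4 in HuR against GFP, where 15.1%, 12.4% and 7.78% of all genes were called. The 3 comparisons share GFP 2. The filter of the main fits was kept, so which probes were tested still depended on GFP 1. In TIA1 against GFP, SFRP5 and WNT8B were tested through the GFP arrays alone, as was SFRP5 in HuR against GFP. WNT4 was tested in TIAR against GFP through the TIAR arrays alone. The directions of these calls therefore follow from the filter.

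APC2 rose in TIA1 against GFP by 2.94 ± 0.20 (limma, adjusted p = 0.00173) and in TIAR against GFP by 2.29 ± 0.20 (adjusted p = 0.00345) in this fit. DKK1 rose by 1.41 ± 0.11 (adjusted p = 0.00203) and 1.15 ± 0.11 (adjusted p = 0.00415), and WNT6 by 1.07 ± 0.19 (adjusted p = 0.0140) and 1.12 ± 0.19 (adjusted p = 0.0161). For these 3 genes the GFP arrays lay close together, with GFP 1 above GFP 2 by 0.25 for DKK1 and 0.05 for WNT6 and below it by a difference of −0.06 for APC2. FZD1 (1.51 ± 0.14) and WNT16 (1.10 ± 0.14) rose in TIA1 against GFP and WNT10B fell by 1.26 ± 0.12 on the log2 scale. GFP 1 and GFP 2 read −0.52 and −1.07 for FZD1 and −1.13 and −0.43 for WNT10B. For both genes GFP 1 lay nearer the TIA1 level, so the sizes depend on the GFP array. DKK3 rose by 1.45 ± 0.18 in TIAR against GFP, but was lower than GFP 1 (−2.88 without GFP 2), so that its direction rests on the choice of GFP array.

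In the HuR line, WNT6 (−1.29 ± 0.19), WNT16 (−1.23 ± 0.14), SFRP1 (−1.25 ± 0.12) and SFRP5 were lower than on GFP 2 (limma, adjusted p = 0.0190, 0.0117, 0.00830 and 0.00521). SFRP5 was not well above background in the HuR line, and its GFP 2 level was at least 2.30-fold higher. In the TIA1 line SFRP5 and WNT8B were likewise at background, with GFP 2 at least 1.59-fold and 1.36-fold higher (adjusted p = 0.00884 and 0.0412). WNT4 was at background on GFP 2, and the TIAR line was at least 1.62-fold higher. The TIAR line was lower than GFP 1 for WNT4 (−0.73 without GFP 2), so that this direction rests on the choice of GFP array. WNT6 and WNT16 thus lay lower in the HuR line and higher in the TIA1 line than on GFP 2.

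**Figure D4:**
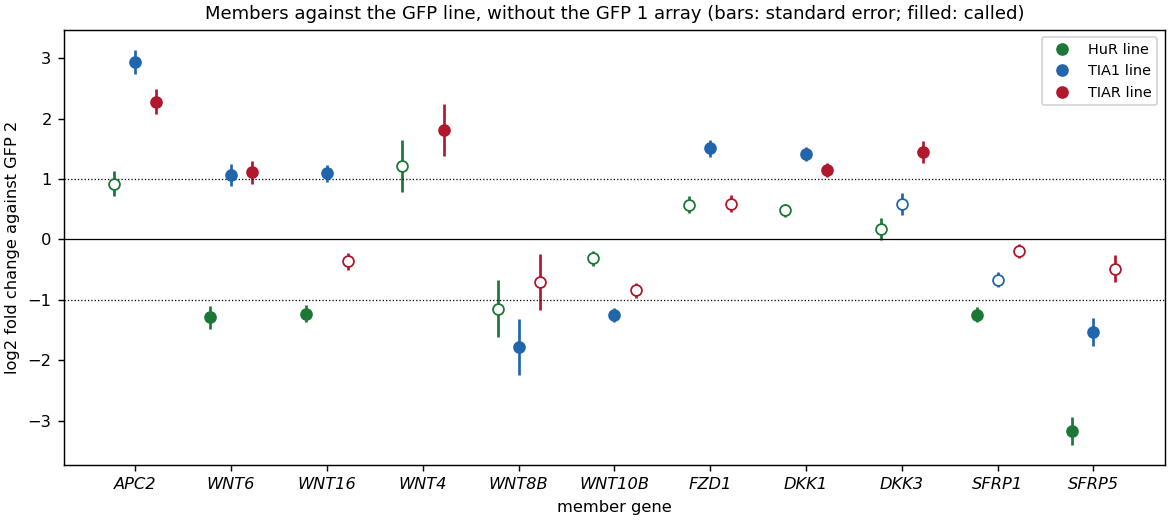
Log2 fold change of the 11 members called in any comparison with the GFP line in the fit of the 7 arrays other than GFP 1; bars are standard errors, filled points were called and dotted lines mark 2-fold. APC2, WNT6 and DKK1 are filled above 0 in the TIA1 and TIAR lines, and WNT6, WNT16, SFRP1 and SFRP5 are filled below 0 in the HuR line; for WNT4, WNT8B and SFRP5 a group was at background.

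Further pathway genes, listed by role apart from the members, numbered 85, of which 83 were on the array. In TIA1 against HuR 78 of them were tested, 6 were called higher and 4 lower (12.8% called), and in TIAR against HuR 77 were tested, 6 higher and 3 lower (11.7%). Over all genes, 15.9% and 12.2% were called. The median differences of these pathway genes were 0.04 and −0.02. Among genes of secretion and the extracellular space, FRZB (SFRP3), an inhibitor that binds WNT ligands, rose by 1.44 ± 0.14 in TIA1 against HuR (limma, adjusted p = 0.00483) and by 1.48 ± 0.12 in TIAR against HuR (adjusted p = 0.00613). WIF1, a further ligand-binding inhibitor, fell in TIA1 against HuR (−2.22 ± 0.30, adjusted p = 0.00887), and SOSTDC1 fell in both (−1.29 and −1.50).

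RSPO4, an R-spondin that strengthens WNT signals at the receptor, rose in TIAR against HuR by 2.93 ± 0.13 (limma, adjusted p = 0.00375) and was also higher in TIAR than in TIA1, by 2.71 ± 0.17 (adjusted p = 0.0183). Its mean level was −2.06 in the TIAR line, −4.78 in the TIA1 line and −1.63 in the GFP line, and was lowest in the HuR line, so that TIAR lay near GFP. WIF1 was the other of 2 pathway genes called higher in TIAR against TIA1 (1.61 ± 0.11), with 0 called lower. These were 2.60% of the 77 tested, against 2.93% of all genes.

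At the membrane, KREMEN2, a receptor for DKK1, rose by 1.73 ± 0.11 and 1.47 ± 0.11 against HuR in the TIA1 and the TIAR line (limma, adjusted p = 0.00260 and 0.00532), and TMEM198 rose by 1.52 and 1.23. APCDD1, a membrane inhibitor of the pathway, fell in TIA1 against HuR (−1.27) and LGR5, a receptor for R-spondins, fell in TIAR against HuR (−1.39). In the cytoplasmic list of 24 tested genes, with dishevelled, GSK3 and casein kinase 1 genes, 1 was called in TIA1 against HuR and 0 in TIAR against HuR. That gene was FAM123B (AMER1), a partner of APC, at −1.14. BCL9L, a co-activator of beta-catenin, was the nuclear gene called of 16 tested, at 1.29 and 1.32 on its probes in TIA1 against HuR and 1.05 and 0.53 in TIAR against HuR. Of 13 planar polarity genes, VANGL2 rose in both (1.75 and 2.01) and CELSR3 in TIA1 against HuR (1.17).

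Known targets of beta-catenin moved in both directions. Of 29 listed, 24 were tested, and 2 rose and 3 fell in each comparison with HuR, with median differences of 0.10 and 0.08. Over all genes, 10.2% and 8.62% were called higher in these comparisons and 5.79% and 3.66% lower. SP5, a transcription factor, rose by 2.28 ± 0.09 in TIA1 against HuR (limma, adjusted p = 0.00177) and by 1.70 ± 0.13 in TIAR against HuR (adjusted p = 0.00579), and EPHB3, an ephrin receptor, by 1.14 and 1.26. CCND1, the gene of cyclin D1, fell (−1.83 ± 0.12 and −1.64 ± 0.11), and MYC, a transcription factor of growth, did too (−1.10 ± 0.09 and −1.59 ± 0.11). The third that fell was APCDD1 in the TIA1 line and LGR5 in the TIAR line. CCND1 had a mean level of 0.83 in the HuR line, −0.998 in the TIA1 line, −0.81 in the TIAR line and −0.89 in the GFP line, so that the HuR line stood apart from the other 3. In the same order of lines, SP5 averaged −4.05, −1.77, −2.35 and −2.16, and EPHB3 −3.30, −2.16, −2.05 and −1.57, again with HuR apart. MYC averaged 3.39, 2.29, 1.81 and 2.87, with the means of the TIA1 and TIAR lines below that of the GFP line. Against GFP it gave −0.58 in the TIA1 line and −1.07 in the TIAR line, neither called (limma, adjusted p = 0.240 and 0.207). DKK1, LEF1, TCF7 and AXIN2 are on this list as well as among the members. In TIAR against TIA1, CD44 rose (1.51) on 1 of 2 probes, the other giving −0.19, and ID2 fell (−1.26).

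**Figure D5:**
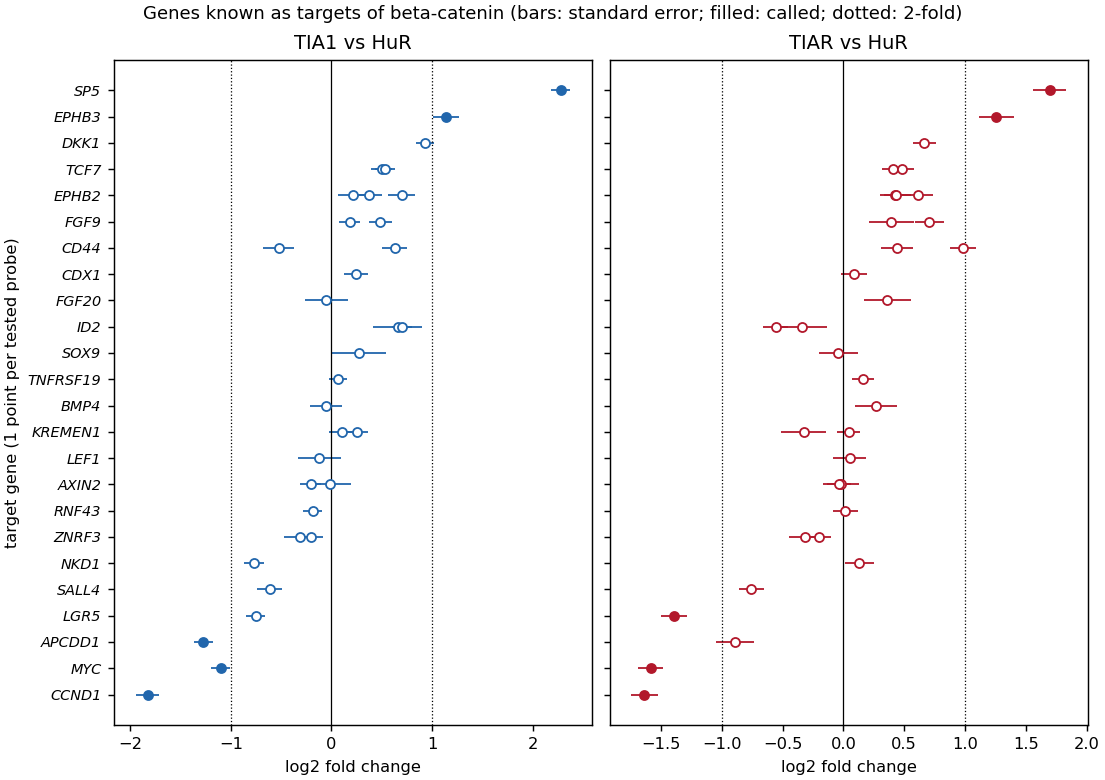
Log2 fold change of each tested probe of 24 genes known as targets of beta-catenin, in TIA1 against HuR and TIAR against HuR; bars are standard errors, filled points were called and dotted lines mark 2-fold. SP5 and EPHB3 are filled on the right in both panels and CCND1 and MYC on the left, while AXIN2 and LEF1 lie near 0.

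Markers of other cell types were read for the same contrasts. Among immune markers, CD14 (1.13), CD68 (1.27) and ITGAM (1.36) were called higher in TIA1 against HuR, and CD68 (1.997) and ITGAM (1.24) in TIAR against HuR. Of 7 fibroblast markers, LUM was lower in TIA1 against HuR (−1.65) and DCN higher in TIAR against HuR (1.46), and both were higher in TIAR against TIA1 (1.78 and 1.08). Of the 10 HEK293 markers, NEFL was lower in TIA1 against HuR (−1.40) and TIAR against HuR (−1.68), and NEFM in TIAR against HuR (−1.05). Of 5 endothelial markers, VWF was higher in TIA1 against HuR on 1 of its 2 probes (1.03 and 0.20). Of 4 hepatocyte markers, ALB was higher in both (2.82 and 2.61). ALB was well above background on 1 of the 2 HuR arrays (−5.94 and −5.42), so these sizes rest on a HuR level near background. The part of the markers in the WNT results was not tested.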

How the data were processed

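Total RNA of 4 FT293 lines, taken on day 3 of tetracycline, was hybridized to 8 single-colour Agilent human arrays, 2 per line. The authors deposited processed intensity values from Agilent Feature Extraction, with the background subtracted within each array. A series table deposited by the authors holds log2 values whose background correction and normalization are not given in the sources used here, and it served as an alternative.

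Members were matched by gene name. The members, the gene lists and the tests were chosen with earlier results of these data known. Outlier spots were left out, log2 signals were taken relative to each array's 75th percentile, and spots of a probe were averaged. A probe was tested where it was well above background (Agilent's mark, on at least as many spots as it lacked it on) on both arrays of at least 1 compared line. Each of 6 comparisons was fitted on its 4 arrays with limma 3.58.1 (lmFit and eBayes) in R 4.3.3, with calls at 2-fold or more where the Benjamini-Hochberg adjusted p over all tested probes was under 0.05. A gene was called if 1 of its probes was, and called members are given on every array. The value of a gene with several probes is that of the probe with the highest mean, unless another was called. Of the other pathway lists, called genes with the largest changes are named. Some results of the marker lists are not reported here. P-values rest on the spread between 2 arrays per line, which eBayes draws toward the spread of all tested probes. The number of arrays limits the precision. The design text names a human array, and the protocol of the labels names another, so the array was taken from the files. An "at least" fold sets a line at background to the lowest signal well above background on its arrays, or its own if higher. Alternatives were background correction by normexp (offset 50), normalization by quantiles, the authors' values, other filters, all 8 arrays with and without weights, a replicate block, arrays left out and the paired t-test of the methods. Promoters are from RefSeq (GRCh38.p14). Tables were made with pandas 2.3.3 and plots with matplotlib 3.10.9.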

Additional observations from a re-analysis of the deposited data

Results flagged for a closer look

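WNT16 and WNT5A responded differently in the TIA1 and the TIAR line relative to HuR, by the limma test of TIAR against TIA1 itself. The difference was −1.46 for WNT16 (adjusted p = 0.0234) and −1.13 for WNT5A (adjusted p = 0.0440), with both TIAR arrays below both TIA1 arrays for each gene. Against HuR, WNT5A gave 0.78 in the TIA1 line and −0.35 in the TIAR line, and WNT16 gave 2.33 and 0.87. The calls of both genes were lost when any of the 4 arrays was left out, with differences of −1.53 to −1.39 for WNT16 and −1.25 to −1.01 for WNT5A, while calls over all probes fell from 659 to between 0 and 34. With normexp the WNT16 difference was −0.90.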

How the results depend on the processing

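No call among the HuR, TIA1 and TIAR lines changed sign under any alternative run, but some differences against GFP did. In TIAR, TIA1 and HuR against GFP, DKK3 gave 1.45, 0.59 and 0.18 without GFP 1 and −2.88, −3.74 and −4.15 without GFP 2. WNT4 was at background on GFP 2. In TIAR and HuR against GFP it gave 1.81 and 1.22 without GFP 1, and −0.73 and −1.32 without GFP 2. In TIA1 against HuR, WNT16 and APC2 were called under 14 of 15 alternatives each and WNT6 under 13 of 15, and in TIAR against HuR WNT6 under 13 of 15, APC2 under 10, SFRP1 under 8 and DKK3 and WNT3A under 5. SFRP5 was called under 8 of 14, WNT4 under 8 of 14, and WNT16 and WNT5A in TIAR against TIA1 under 5 of 15. The count of members called in TIA1 against HuR, 4, became 7 with no filter on dim probes and ranged from 4 to 6 with 1 array left out. In TIAR against HuR, 6 became 2 with normexp, 3 with quantile normalization, 2 with both and 2 with the authors' values, and ranged from 1 to 7 with 1 array left out: 2 without HuR 1 (SFRP5 and WNT6) and 1 without HuR 2 (WNT6), while calls over all probes fell from 2930 to 775 and 631. In TIAR against TIA1, 2 became 1 with normexp, 1 with normexp and quantile normalization, 0 with the authors' values, 0 with no filter, 1 with all 8 arrays in a common fit, 4 with array weights and 0 without any 1 array, where calls over all probes fell from 659 to between 0 and 34. The paired t-test of the methods called 2, 1 and 1 members in these 3 comparisons unadjusted, and 0, 0 and 0 after Benjamini-Hochberg.

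In TIA1, TIAR and HuR against GFP, 0 became 6, 3 and 4 with all 8 arrays in a common fit, 2, 0 and 1 with array weights, 8, 5 and 4 with the 7 arrays other than GFP 1, and 3, 2 and 0 with the unadjusted paired t-test. With 1 array left out, the counts ranged from 0 to 13, 0 to 9 and 0 to 11: 7, 4 and 6 without GFP 1 and 13, 9 and 11 without GFP 2, where 3213, 1881 and 2445 and then 6601, 6076 and 7009 of all probes were called. A lone array was taken to vary like the other line. The cause of these shifts was not tested. With the replicate number as a block, 4 members were called in TIA1 against HuR, 6 in TIAR against HuR, 0 in TIAR against TIA1 and 0 in each comparison with GFP. Arrays of the same number correlated at 0.13, −0.01 and 0.18 in the first 3 comparisons and −0.09, −0.04 and 0.03 against GFP, so the number was not taken to pair them. Quantile normalization moved the median of all probes in TIA1 against HuR from 0.08 to −0.02, and in TIA1, TIAR and HuR against GFP from 0.01, −0.02 and −0.04 to 0.24, 0.23 and 0.25. Signal over background limits the dim members, above all WNT4, SFRP5 and WNT8B.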
